A study of Caenorhabditis elegans with 4 samples.

Results

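The 27 genes described here are Caenorhabditis elegans genes known in the deposited tables only by a sequence name, such as W06H8.2. In each of the strains VZ1 and N2 they stood higher in animals stressed with arsenite than in unstressed animals. They are 27 of the 276 distinct locus names in the 4 tables and 27 of the 65 named loci that rose in both strains, which are 0.451% of the genes tested. A gene was taken when its name stood in both stress tables with an FPKM above 0 in the unstressed library and a larger FPKM in the stressed one. Names beginning with C32H11, F55G11, ZK896 or K08D8 were left out, which removed 5 genes. FPKM counts fragments per kilobase of exon, scaled to the mapped fragments of the library, so levels of different genes can be set side by side per length.

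RNA was taken from whole young adult animals, and each of the 4 groups has 1 library. The groups are VZ1 kept for 5 h in 10 mM NaAs (sodium arsenite), VZ1 left without stress on the bacterial food OP50, N2 kept for 5 h in 10 mM NaAs, and N2 left without stress on OP50. N2 is the standard wild type, and VZ1 is known as a strain with a deletion in trx-1, a thioredoxin gene active in a pair of sensory neurons. Neither trx-1 nor skn-1, both named in the title of the study, is listed in any table (0 of 4), so the tables give no check of the strain labels. With no replicates, no difference below has a replicate check. Sequencing depth is unknown, since the tables hold no read counts. Since the RNA is from whole animals, more cells of a type and more RNA per cell cannot be told apart. Arsenite and any difference in food or handling between stressed and unstressed animals cannot be told apart either.

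Arsenite binds thiol groups of proteins and of glutathione and causes oxidative stress. The worm answers such stress largely through SKN-1, its Nrf-family transcription factor, which turns on detoxification enzymes, and through other regulators that turn on chaperones and secreted defence proteins. A sequence name joins the name of the cloned piece of genome on which a gene was first read with a running number, and it stays in use until someone gives the gene a name for its function or mutant. Genes with only such a name are therefore mostly genes whose function had not been described when the tables were made.

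Current annotation gives 5 of the 27 a gene symbol and leaves 22 with the sequence name alone. F35E12.5 is now irg-5, an infection response gene known for a CUB-like domain. F55G1.9 is now pycr-4, named for pyrroline-5-carboxylate reductase, the last enzyme of proline synthesis. R05D8.7 is now dhsl-4, named as a relative of the short-chain dehydrogenases. C34C6.7 is now cup-16, of a class of genes named for uptake by coelomocytes, the scavenger cells of the body cavity. Y52E8A.3 is now nxnr-1. Among those with no symbol, F56D5.3 is known as a predicted flavin oxidoreductase and C06E4.3 as a predicted short-chain dehydrogenase. Both families are given from general knowledge, and no family was looked up for the other genes with no symbol. All 27 are annotated as protein coding.

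As a group the 27 genes stood at a median of 154 FPKM in stressed VZ1, against 6.31 FPKM in unstressed VZ1. In N2 their median was 89.6 FPKM in stressed animals, against 6.59 FPKM in unstressed animals. The lowest of them stood at 22.3 FPKM in stressed VZ1 and at 11.05 FPKM in stressed N2, and the highest at 849 FPKM in stressed VZ1 and at 746 FPKM in stressed N2. The median fold of stressed over unstressed was 14.4 in VZ1 and 12.8 in N2. Over all genes that the authors listed as higher in stressed animals and above 0 in unstressed ones, the median fold was 14.3 in VZ1 (76 genes, 0.527% of those tested) and 12.1 in N2 (101 genes, 0.702% of those tested). The rule used these same differences, so the rise itself is a description and was given no test.

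**Figure D1:**
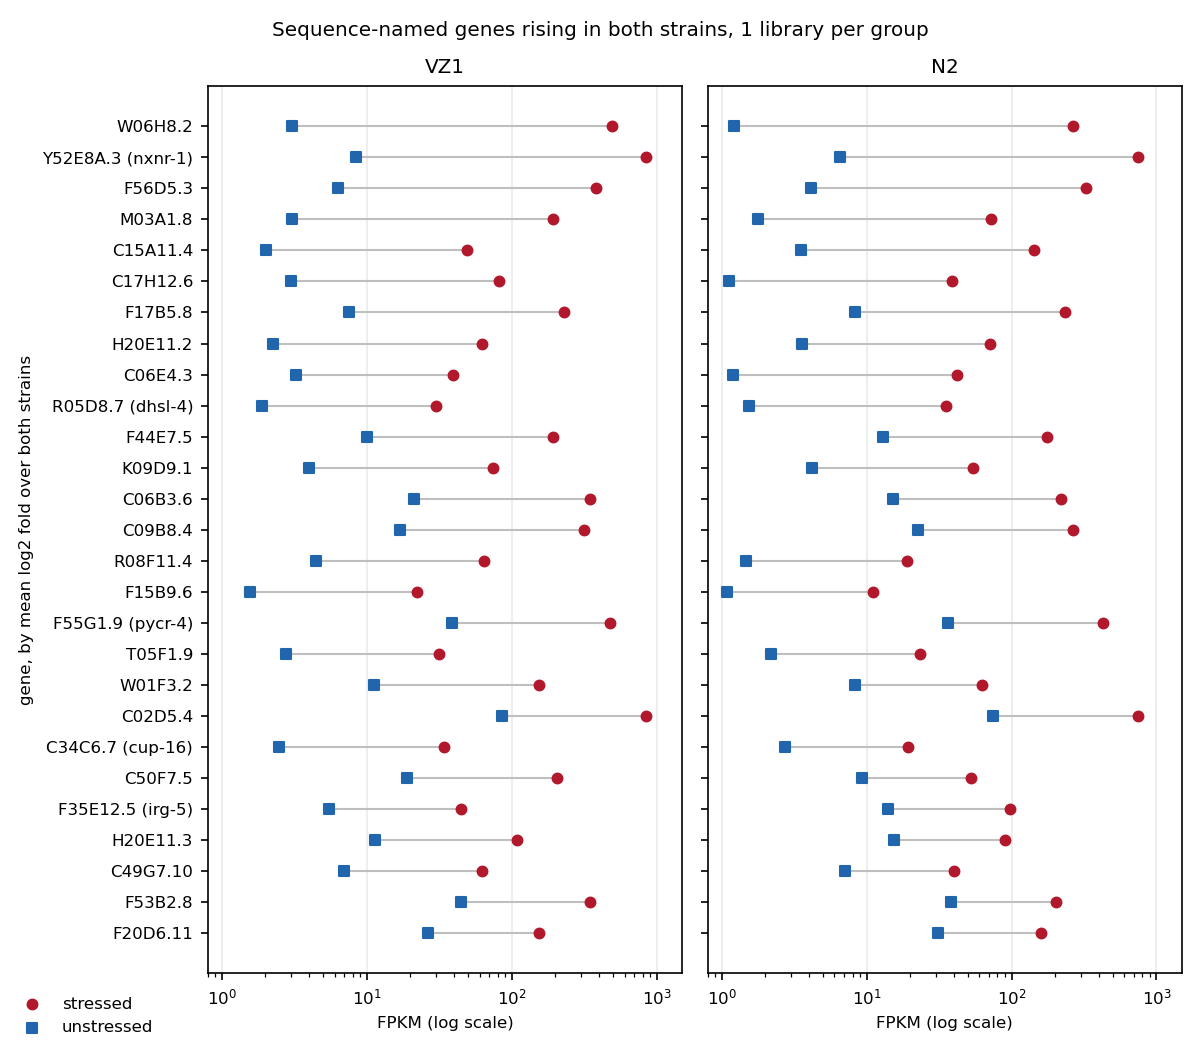
FPKM on a log axis of the 27 genes in stressed (circles) and unstressed (squares) animals of VZ1 (left) and N2 (right), 1 library per group. The genes run from the largest mean log2 fold (W06H8.2) at the top to the smallest (F20D6.11) at the bottom, and the right-hand end of each line, the stressed level, lies between 22.3 and 849 FPKM in VZ1 and between 11.05 and 746 FPKM in N2.

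The largest rise was that of W06H8.2 (chromosome V, 6206840 to 6208463 in the ce10 coordinates of the N2 table, which are used throughout). It had 493 FPKM in stressed VZ1, against 3.03 FPKM in unstressed VZ1, a 163-fold difference. N2 animals had 264 FPKM stressed and 1.22 FPKM unstressed, a 217-fold difference. Among all 65 loci that rose in both strains, W06H8.2 ranked 2 by fold in each strain. Its locus in the VZ1 table begins further to the left, at 6204857, so that the locus measures 3606 bases there and 1623 bases in the N2 table.

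Y52E8A.3, now nxnr-1 (chromosome II, 4305351 to 4306943), came next by fold and joined a large fold to one of the highest levels. It had 843 FPKM in stressed VZ1, against 8.41 FPKM in unstressed VZ1 (100.2-fold), and 746 FPKM in stressed N2, against 6.59 FPKM in unstressed N2 (113-fold). The annotated gene overlaps gtf-2F1 on the other strand. The strandedness of the libraries is not given in the sources used here. Reads from a stretch that the 2 genes share therefore cannot be assigned to either gene.

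F56D5.3, the predicted flavin oxidoreductase gene (chromosome IV, 9398972 to 9401264), had 381 FPKM in stressed VZ1, against 6.31 FPKM in unstressed VZ1. Its N2 values were 326 FPKM in stressed animals and 4.15 FPKM in unstressed ones. These are rises of 60.4-fold in VZ1 and 78.6-fold in N2. M03A1.8 (chromosome II, 4560394 to 4562457) had 192 FPKM in stressed VZ1, against 3.04 FPKM in unstressed VZ1 (63.1-fold), and 72.2 FPKM in stressed N2, against 1.77 FPKM in unstressed N2 (40.8-fold). Of the 5 genes with the largest mean fold it was the only one with a larger fold in VZ1 than in N2.

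C15A11.4 (chromosome I, 7398751 to 7402705) completed the 5 largest folds by the mean of the strains and was the gene whose stressed level differed most in favour of N2. It had 49.4 FPKM in stressed VZ1, against 2.01 FPKM in unstressed VZ1 (24.6-fold), and 142 FPKM in stressed N2, against 3.51 FPKM in unstressed N2 (40.5-fold). The stressed level in VZ1 was thus 0.348 times that in N2. The locus measures 2177 bases in the VZ1 table and 3954 bases in the N2 table, and what part this has in the difference of levels was not tested.

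Some of the highest levels were those of genes with smaller folds. C02D5.4 (chromosome III, 8552495 to 8553673), which lies beside gsto-2, the gene of an omega-class glutathione transferase, had 849 FPKM in stressed VZ1, against 85.1 FPKM in unstressed VZ1. In N2 it had 739.9 FPKM in stressed animals, against 74.1 FPKM in unstressed ones. The fold was 9.98 in each strain, and no other gene of the 27 had as high an unstressed level. C02D5.4 and gsto-2 both have 762 coding bases, and whether they are related in sequence was not tested. pycr-4 (F55G1.9, chromosome IV, 7473311 to 7477619) had 473 FPKM in stressed VZ1, against 38.6 FPKM in unstressed VZ1 (12.3-fold), and 426 FPKM in stressed N2, against 36.5 FPKM in unstressed N2 (11.7-fold). Its locus measures 1423 bases in the VZ1 table and 4308 bases in the N2 table, and the annotated gene overlaps slc-25A18.2. The stressed level in VZ1 was 1.11 times that in N2. What part the locus extent and the overlap have in these levels was not tested. W06H8.2, Y52E8A.3, F56D5.3, C02D5.4 and pycr-4 are the 5 genes with the highest mean level in stressed animals.

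By the mean log2 fold of the strains, the smallest rises were those of F20D6.11, F53B2.8 and C49G7.10. F20D6.11 (chromosome V, 8196759 to 8199687) had 154 FPKM in stressed VZ1, against 26.4 FPKM in unstressed VZ1 (5.82-fold), and 160.1 FPKM in stressed N2, against 31.3 FPKM in unstressed N2 (5.12-fold). F53B2.8 (chromosome IV, 12526369 to 12527190) had 344 FPKM in stressed VZ1, against 44.8 FPKM in unstressed VZ1 (7.68-fold), and 202 FPKM in stressed N2, against 38.4 FPKM in unstressed N2 (5.26-fold). Both began from unstressed levels above those of most of the 27. The smallest fold with which any gene above 0 in unstressed animals was listed as rising was 5.63 in VZ1 and 4.02 in N2.

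Just inside the authors' threshold, the largest q of any of the 27 was 0.0476 in VZ1 and 0.0411 in N2, from the authors' deposited tables. The first is that of F17B5.8, dhsl-4 and irg-5, and the second that of cup-16. The smallest p of the authors' test was 5e-05 in each strain. The genes were taken through the authors' call, so their p and q values give no separate support for the rise. Genes above the threshold are not listed, so there are no values for those just outside it.

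F17B5.8 (chromosome I, 13191128 to 13191776), the shortest of the 27 with 381 coding bases, had 227 FPKM in stressed VZ1, against 7.51 FPKM in unstressed VZ1 (30.3-fold), and 236 FPKM in stressed N2, against 8.28 FPKM in unstressed N2 (28.5-fold). F44E7.5 (chromosome V, 5778811 to 5780759) had 193 FPKM in stressed VZ1, against 10.1 FPKM in unstressed VZ1 (19.1-fold), and 177 FPKM in stressed N2, against 12.9 FPKM in unstressed N2 (13.7-fold). C09B8.4 (chromosome X, 6018440 to 6019893), the only one of the 27 on the X chromosome, had 315 FPKM in stressed VZ1, against 16.8 FPKM in unstressed VZ1 (18.7-fold), and 266 FPKM in stressed N2, against 22.7 FPKM in unstressed N2 (11.7-fold). Stressed VZ1 stood at 0.965 times stressed N2 for F17B5.8, 1.09 times for F44E7.5 and 1.18 times for C09B8.4.

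The genes related by name or family to short-chain dehydrogenases had low levels among the 27. dhsl-4 (R05D8.7, chromosome V, 2761887 to 2763178) had 30.2 FPKM in stressed VZ1, against 1.90 FPKM in unstressed VZ1 (15.9-fold), and 35.2 FPKM in stressed N2, against 1.54 FPKM in unstressed N2 (22.8-fold). C06E4.3 (chromosome IV, 7260909 to 7262012) had 39.5 FPKM in stressed VZ1, against 3.27 FPKM in unstressed VZ1 (12.1-fold), and 42.4 FPKM in stressed N2, against 1.19 FPKM in unstressed N2 (35.6-fold). Annotation places dhsl-4 beside dhs-14, another gene of the dehydrogenase family, and C06E4.3 overlaps glb-2, a globin gene, on the other strand. T05F1.9 (chromosome I, 9645688 to 9647595) overlaps dhs-4 on the other strand, and had 31.4 FPKM in stressed VZ1, against 2.77 FPKM in unstressed VZ1 (11.3-fold), and 23.4 FPKM in stressed N2, against 2.18 FPKM in unstressed N2 (10.7-fold). The deposited tables list neither dhs-14 nor glb-2 nor dhs-4.

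The lowest stressed levels were those of F15B9.6 (chromosome V, 13014133 to 13016452), with 22.3 FPKM in stressed VZ1, against 1.55 FPKM in unstressed VZ1 (14.3-fold), and 11.05 FPKM in stressed N2, against 1.09 FPKM in unstressed N2 (10.2-fold). cup-16 (C34C6.7, chromosome II, 8707335 to 8708741) had 34.1 FPKM in stressed VZ1, against 2.48 FPKM in unstressed VZ1 (13.7-fold), and 19.3 FPKM in stressed N2, against 2.72 FPKM in unstressed N2 (7.10-fold). At such unstressed levels a small change of the denominator moves the fold, and without read counts its counting error cannot be given.

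Compared with the 33 loci of other names that rose in both strains, the 27 genes had similar median folds and lower median levels. The median of the 33 was 481 FPKM in stressed VZ1, 32.7 FPKM in unstressed VZ1, 395 FPKM in stressed N2 and 25.0 FPKM in unstressed N2, and their median fold was 14.4 in each strain. An unstressed level under 5 FPKM was found for 12 of the 27 genes and 3 of the 33 others in VZ1, and for 13 of the 27 and 2 of the 33 in N2. A stressed level of at least 100 FPKM was found for 15 of the 27 genes and 28 of the 33 others in VZ1, and for 12 of the 27 and 28 of the 33 in N2. Both sets were chosen by their rise, and the difference between them was not tested.

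**Figure D2:**
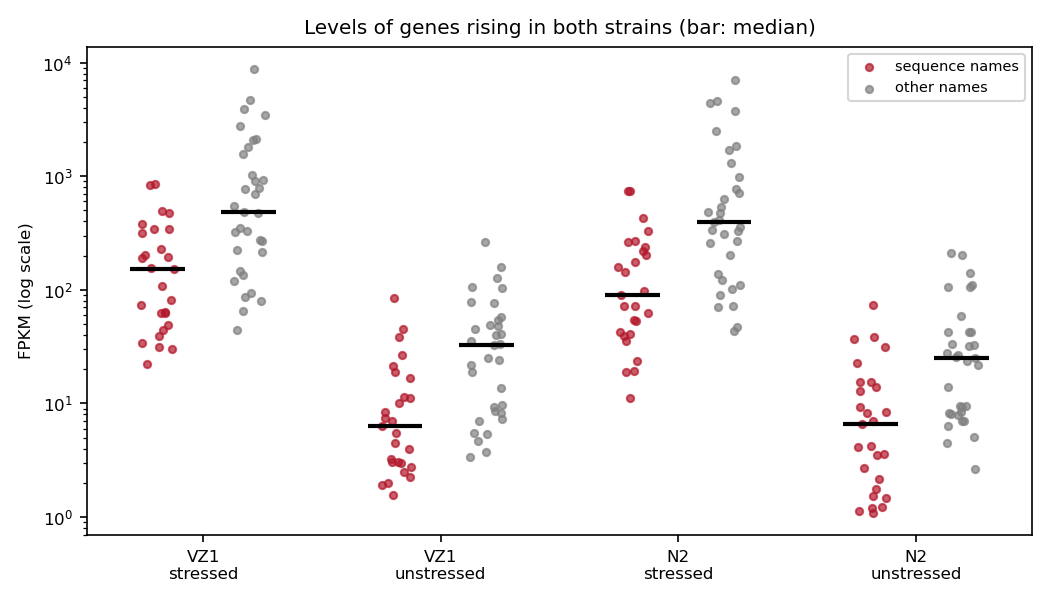
FPKM on a log axis of the 27 sequence-named genes (red) and the 33 loci of other names (grey) that rose in both strains, for each of the 4 libraries. Each point is 1 gene and the bar is the median, which is 154 FPKM for the sequence names and 481 FPKM for the other names in stressed VZ1.

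For most of the 27 genes the log2 folds of the strains differed by less than 1. Subtracting the log2 fold of N2 from that of VZ1 gave a median of 0.20. The difference lay under 0.5 in size for 15 genes and under 1 for 26, and it was above 0 for 19 genes and below 0 for 8. Among the 33 loci of other names the median was 0.18, with 19 above 0 and 14 below. Of these 33 loci, 25 had a difference under 0.5 in size and 32 under 1. The exception among the 27 was C06E4.3, whose log2 fold was 3.59 in VZ1 and 5.15 in N2, a difference of −1.56. Its stressed levels were nearly equal. Its unstressed level was 3.27 FPKM in VZ1 and 1.19 FPKM in N2, 2.75 times as high in VZ1. At such low levels a small change of the denominator moves the fold. The next largest differences were those of cup-16 (log2 fold 3.78 in VZ1 and 2.83 in N2, difference 0.95) and C50F7.5 (3.43 in VZ1 and 2.49 in N2, difference 0.94). With 1 library per group none of these differences could be tested.

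**Figure D3:**
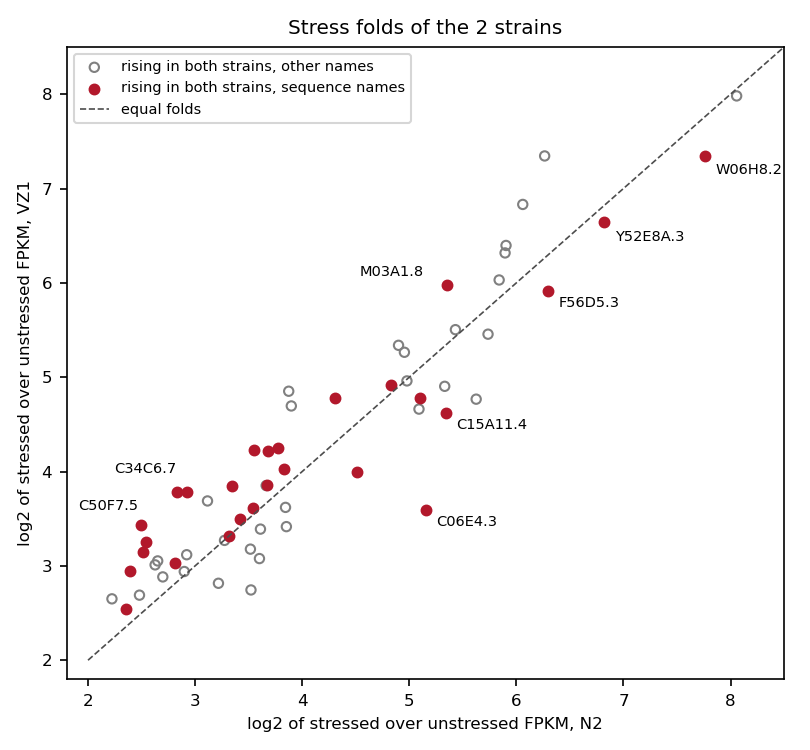
Log2 of stressed over unstressed FPKM in VZ1 (vertical) against that in N2 (horizontal) for the 27 sequence-named genes (filled) and the 33 loci of other names (open) that rose in both strains, with the line of equal folds. The sequence-named genes run from F20D6.11, at 2.54 in VZ1 and 2.35 in N2, to W06H8.2, at 7.35 in VZ1 and 7.76 in N2, with C06E4.3 the farthest of them from the line.

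None of the 27 genes is listed in either table that compares VZ1 with N2 (0 without stress and 0 under stress), where 0.437% of genes tested are listed without stress and 0.508% under stress. A gene that is not listed is not shown to be equal. Set side by side from the separate stress tables, the stressed level was higher in VZ1 for 20 genes and higher in N2 for 7. The median ratio of VZ1 to N2 was 1.22. The unstressed level was higher in VZ1 for 16 and higher in N2 for 11, with a median ratio of 1.17. Among the 33 loci of other names the stressed level was higher in VZ1 for 28 and in N2 for 5, with a median ratio of 1.18. Their unstressed level was higher in VZ1 for 17 and in N2 for 16, with a median ratio of 1.02. The tables were scaled separately. The same library at the same locus gave ratios of 0.932 to 0.980 between tables for 7 genes in unstressed N2 and of 1.006 to 1.011 for 4 genes in stressed N2, and no such gene was found for either VZ1 library.

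The stressed level of 6 genes was more than 2 times as high in VZ1 as in N2, and that of 2 genes was less than 0.5 times as high. Among the 33 loci of other names there were 0 of either kind. C50F7.5 (chromosome IV, 7726702 to 7727632), a gene with a single exon in the annotation, had the largest ratio, 3.87. It stood at 204 FPKM in stressed VZ1, against 18.9 FPKM in unstressed VZ1 (10.8-fold), and at 52.7 FPKM in stressed N2, against 9.36 FPKM in unstressed N2 (5.63-fold). R08F11.4 (chromosome V, 3803964 to 3805490) stood at 64.1 FPKM in stressed VZ1, against 4.44 FPKM in unstressed VZ1 (14.4-fold), and at 18.9 FPKM in stressed N2, against 1.48 FPKM in unstressed N2 (12.8-fold). Its levels were thus higher in VZ1 by factors of 3.39 with stress and 2.99 without, at like folds. W01F3.2 (chromosome V, 20655785 to 20657326) stood at 155 FPKM in stressed VZ1, against 11.2 FPKM in unstressed VZ1 (13.8-fold), and at 62.9 FPKM in stressed N2, against 8.31 FPKM in unstressed N2 (7.57-fold).

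Of these 8 genes only those 3 have the same locus in both stress tables. For the other 5 (M03A1.8, C17H12.6 and F15B9.6, higher in VZ1, and C15A11.4 and irg-5, higher in N2) the extent of the locus differs between the tables. Over all 27 genes the locus is the same for 17 and differs for 10, by 174 to 2885 bases in width. The stressed level was higher in VZ1 for 13 of the 17 and for 7 of the 10, and the median difference of log2 fold, VZ1 minus N2, was 0.47 for the 17 and 0.13 for the 10.

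The 27 genes are spread over all 6 chromosomes, with 11 (40.7%) on V, 8 (29.6%) on IV, 3 each on I and II, and 1 each on III and X. Of the 33 loci of other names 13 (39.4%) lie on V and 4 (12.1%) on IV, and of annotated protein-coding genes 25.0% lie on V and 16.4% on IV. Within 20 kb of another gene that rose in both strains were 5 of the 27 genes, 11 of the 33 loci of other names and 4 of the 5 genes of the left-out families. The 5 form a group of 3 on chromosome IV and a pair on chromosome V, in which the nearby gene is also 1 of the 27.

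On chromosome IV, C17H12.6 (6821083 to 6822792), H20E11.3 (6824877 to 6826744) and H20E11.2 (6827760 to 6829474) are consecutive protein-coding genes. C17H12.6 is on the minus strand and the other two are on the plus strand. C17H12.6 had 81.8 FPKM in stressed VZ1, against 2.99 FPKM in unstressed VZ1 (27.4-fold), and 38.8 FPKM in stressed N2, against 1.13 FPKM in unstressed N2 (34.3-fold). H20E11.2 had 62.2 FPKM in stressed VZ1, against 2.27 FPKM in unstressed VZ1 (27.4-fold), and 71.5 FPKM in stressed N2, against 3.61 FPKM in unstressed N2 (19.8-fold). H20E11.3, between them, had 109 FPKM in stressed VZ1, against 11.5 FPKM in unstressed VZ1 (9.51-fold), and 89.6 FPKM in stressed N2, against 15.4 FPKM in unstressed N2 (5.80-fold). The middle gene thus had the highest level and the smallest fold of the 3 in each strain. Each has 7 exons, with 1071 (C17H12.6), 1083 (H20E11.3) and 1089 (H20E11.2) coding bases. C17H12.8, the next protein-coding gene on the side of C17H12.6, also has 7 exons, with 1044 coding bases, and is not listed in any table.

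On chromosome V, K09D9.1 (4025088 to 4026189) and C49G7.10 (4040437 to 4041976) lie 14248 bases apart on opposite strands, with 4 protein-coding genes between them. K09D9.1 had 74.0 FPKM in stressed VZ1, against 3.97 FPKM in unstressed VZ1 (18.6-fold), and 53.8 FPKM in stressed N2, against 4.20 FPKM in unstressed N2 (12.8-fold). C49G7.10 had 61.9 FPKM in stressed VZ1, against 6.98 FPKM in unstressed VZ1 (8.87-fold), and 40.4 FPKM in stressed N2, against 7.07 FPKM in unstressed N2 (5.72-fold). The fold of both genes was larger in VZ1 than in N2. They share 4 exons and a coding length of 876 bases, a combination held by 8 of the 19985 annotated protein-coding genes. Whether K09D9.1 and C49G7.10 are alike enough in sequence to share reads was not tested. The genes on either side of C49G7.10 also have 4 exons, with 861 (C49G7.12) and 834 (irg-2) coding bases, and neither is listed. K09D9.1 sits between cyp-35A3 and cyp-35A4, genes of cytochrome P450 enzymes, and C49G7.10 beside irg-2, an infection response gene. None of these 3 named genes is listed in any table.

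Other members lie beside or within 20 kb of genes that are listed in 1 strain alone. C06B3.6 (chromosome V, 13908176 to 13908937) had 346 FPKM in stressed VZ1, against 21.2 FPKM in unstressed VZ1 (16.3-fold), and 218 FPKM in stressed N2, against 15.3 FPKM in unstressed N2 (14.3-fold). Its neighbour C06B3.7, 699 bases away, is listed in N2 alone, with 17.5 FPKM in stressed and 0.536 FPKM in unstressed animals. irg-5 (F35E12.5, chromosome V, 13737018 to 13739742) had 44.6 FPKM in stressed VZ1, against 5.46 FPKM in unstressed VZ1 (8.18-fold), and 98.3 FPKM in stressed N2, against 14.0 FPKM in unstressed N2 (7.02-fold). Its locus measures 1380 bases in the VZ1 table and 2724 bases in the N2 table. Within 20 kb of it the VZ1 table lists F20G2.1, with 33.6 FPKM in stressed and 3.13 FPKM in unstressed animals. The N2 table lists F35E12.6, 756 bases away, with 552 FPKM in stressed and 118 FPKM in unstressed animals, dct-17 with 61.7 FPKM in stressed and 15.3 FPKM in unstressed animals, and F20G2.2 with 394 FPKM in stressed and 87.7 FPKM in unstressed animals. F15B9.6 lies 16641 bases from far-3, which is listed in N2 alone, with 156 FPKM in stressed and 31.0 FPKM in unstressed animals. Absence from the table of a strain leaves the level there unknown.

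**Figure D4:**
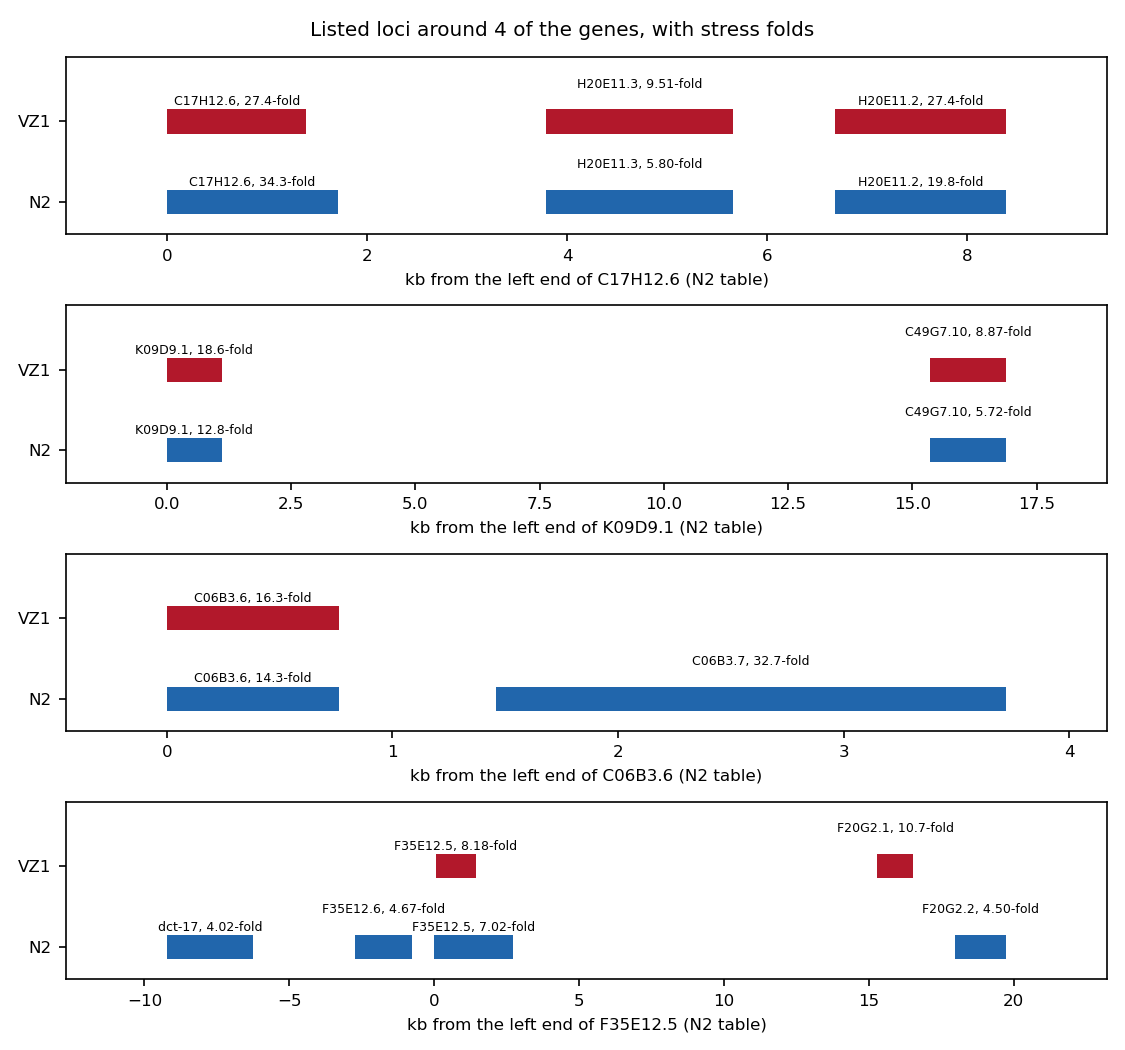
Listed loci within 20 kb of C17H12.6, K09D9.1, C06B3.6 and F35E12.5, drawn to scale as the distance in kb from the left end of each of these loci in the N2 table, with VZ1 loci above and N2 loci below and the fold of stressed over unstressed FPKM printed on each. Both strains show the 3 loci of the C17H12.6 group and the pair of K09D9.1 and C49G7.10, whereas around F35E12.5 the neighbours listed differ between the tables.

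A falling gene also lies near one of the 27. R08E5.3, 29544 bases from R08F11.4 on chromosome V, had 2.97 FPKM in stressed VZ1, against 149 FPKM in unstressed VZ1, and 4.63 FPKM in stressed N2, against 156 FPKM in unstressed N2. R08F11.4 rose in each strain while R08E5.3 fell. K08E7.5, 46142 bases from F53B2.8 on chromosome IV, is listed in VZ1 alone, with 5.97 FPKM in stressed and 44.2 FPKM in unstressed animals.

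In gene structure the 27 genes lay near the medians of the genome. Their median coding length was 1029 bases, from 381 to 1647, against 987 bases over all annotated protein-coding genes, and their median exon number was 5, from 1 to 9, against 5. Of the 27, 7 overlap a protein-coding gene on the other strand, namely nxnr-1, F56D5.3, F17B5.8, C06E4.3, pycr-4, T05F1.9 and cup-16. Another 4 overlap a non-coding or pseudogene entry, namely C15A11.4, F44E7.5, H20E11.3 and F20D6.11. For all of these the share of reads that belongs to the partner is unknown.

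The rule leaves out other sequence-named loci that the stress tables list. Of the sequence-named loci above 0 in unstressed animals that rose, left-out families aside, the 27 make up 81.8% of 33 in VZ1 and 60.0% of 45 in N2. The other 6 in VZ1 and 18 in N2 are listed in that strain alone. At 0 in unstressed animals were 9 in VZ1 and 10 in N2. The sequence-named loci that fell in both strains were R08E5.3 and T13F3.6, a gene with 13.4 FPKM in stressed VZ1, against 166 FPKM in unstressed VZ1, and 4.54 FPKM in stressed N2, against 46.3 FPKM in unstressed N2.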

How the data were processed

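Build ce10 and the tools TopHat, Bowtie2 and Cufflinks are named, without their settings, by the submitters' processing notes. Tool versions, strandedness and annotation were not given in the sources used here. As the file headers show, each of 4 tables compares 2 libraries in Cuffdiff's layout, with FPKM values that the authors scaled for that pair, a p-value and a q-value. Each row is marked significant by the authors, so only called genes have values. The authors' test compares 2 libraries, not 2 conditions.

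Loci were matched between the stress tables by gene name, or locus ID where blank. Folds were computed as stressed over unstressed FPKM with no pseudocount (Python 3.11.15, pandas 2.3.3). No test was made, since each group has 1 library. The numbers of genes tested, 14420 (VZ1 stress), 14397 (N2 stress), 14419 (strain, unstressed) and 14358 (strain, stressed), were recovered from each q-value, its rank and its p-value in the authors' tables, a step checked on simulated data. All 27 names matched RefSeq's and Ensembl's annotation of WBcel235, used for names, gene order, strand, exon number and coding length only. Coordinates are those of the tables. No sequences are printed. Values are given for every one of the 27 genes. The rule singled out the 5 largest and 3 smallest mean log2 folds, the 5 highest mean stressed levels, the 3 largest strain differences and the genes near another rising gene. The members and lists were chosen with earlier results of these data known.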

Additional observations from a re-analysis of the deposited data

How the results depend on the processing

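The number of genes was 32 with the left-out families kept, 22 without genes that now have a symbol, and 17 with the same locus in both tables, a setting chosen after seeing the data. The median log2 fold in VZ1 (3.85) and in N2 (3.67) was 3.95 and 3.68 with the families kept, 3.94 and 3.68 without current symbols, 3.58 and 3.50 with 1 FPKM added to each value, and 3.79 and 3.55 at equal loci. The median difference of log2 fold, VZ1 minus N2, was 0.20, and 0.21, 0.33, 0.22 and 0.47 under the same settings in that order. The median level in stressed N2 was 89.6 FPKM, and 62.9 FPKM at equal loci. These medians move because the settings drop or add genes or raise low values. Loci with 1 gene and an unstressed FPKM of at least 1 left all 27 genes in place. Within 10 kb of another rising gene lay 3 genes, and within 50 kb 6, against 5 within 20 kb. No paired analysis was possible because each group has 1 library and no result comes from a test. The comparisons with the deposited fold column, with related proteins and with promoter motifs were not run. Without read counts, no counting error can be put on the low unstressed levels that some folds rest on, such as 1.22 FPKM for W06H8.2 in N2.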

Other observations

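Some sequence-named loci outside the 27 rose by folds within the range of the 27, but are listed in 1 strain alone, and up to 3 are given per strain by size of fold. In VZ1 these are F20G2.1 with 33.6 FPKM in stressed and 3.13 FPKM in unstressed animals (10.7-fold), E01A2.1 with 433 FPKM in stressed and 60.8 FPKM in unstressed animals (7.13-fold), and T12D8.5 with 119.7 FPKM in stressed and 16.9 FPKM in unstressed animals (7.07-fold). In N2 these are T19D12.3, annotated as a pseudogene, with 208 FPKM in stressed and 1.45 FPKM in unstressed animals (143-fold), C06B3.7 (32.7-fold), and B0462.4 with 30.7 FPKM in stressed and 1.33 FPKM in unstressed animals (23.0-fold). Their level in the other strain is unknown, and a difference between the strains was not tested.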
